A study of Saccharomyces cerevisiae with 9 samples.

Results

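The genes described here serve the formation of aminoacyl-tRNAs in the mitochondria of yeast and are 8 of the 5859 genes listed in the tables: MSE1 (gene5382), MSW1 (gene1220), MSM1 (gene2394), MSF1 (gene6143), MSD1 (gene5995), AIM10 (gene1682), DIA4 (gene2584) and HER2 (gene4794). The first 7 are synthetases, of which AIM10 and DIA4 are annotated as putative, and HER2 is the amidotransferase subunit related to bacterial GatA. The yeast gene HER2 has nothing to do with the human receptor of that name.

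The 8 genes were selected on the measured comparison of group A with group C, in which the study listed them as up-regulated DEGs of aminoacyl-tRNA biosynthesis. Their rise from A to C is therefore a description and was not tested. The other synthetase genes of mitochondria could not be set beside them, because the tables list genes under running numbers only. The names follow an earlier match of printed comparison values, which was not repeated. In the order of their running numbers, 0 of the 8 names were out of order along the chromosomes of the RefSeq reference R64.

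Mitochondria of yeast carry their own ribosomes and translate a small set of messages, most of which encode subunits of the respiratory chain and of ATP synthase. The tRNAs for this translation are charged inside the organelle by aminoacyl-tRNA synthetases that are encoded in the nucleus, made in the cytoplasm and imported. Each synthetase joins 1 amino acid to its tRNA. For glutamine the route is indirect, since a glutamyl group is first placed on the glutamine tRNA and is then converted by an amidotransferase.

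The yeast was AWRI R2, a commercial strain for wine making, fermented without air in a synthetic medium that imitates grape juice. Group A received ethanol without proanthocyanidins (0 g/L), and groups B and C received these grape tannins, abbreviated PAs, dissolved in ethanol, at 0.1 g/L in B and at 1.0 g/L in C. All groups were sampled at 72 h, when growth had stopped, and RNA was sequenced from 3 samples per group, 9 libraries in all, which the study treats as biological replicates. The deposited value of a gene is the mean normalized count over the 6 libraries of 2 groups, and the level of each single group was solved from the 3 such means (for group A, the mean of A and B plus the mean of A and C minus the mean of B and C), after the tables had been put on 1 scale. As values of single libraries were not used, the levels carry no SD and no ratio was tested against replicate spread. The depth of each library enters the levels through the normalization of the counts by the authors. Solving the levels assumes that a group has the same mean in both pairs that hold it, once these are on 1 scale. In bulk RNA, a higher level per cell and more cells with the transcript cannot be told apart.

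The annotation of R64 fits the name of the set. It cites experiments that place 8 of the 8 proteins in the mitochondrion, and DIA4 also in the cytoplasm. The set was named for this place and the share of all genes so annotated was not taken, so nothing is read from the count. AIM10 and DIA4 are annotated as putative ligases for proline and serine. All 8 genes have 1 coding exon, lie on 7 chromosomes and overlap 0 other annotated genes, with 105 to 501 bases to the nearest one. Of 450 stretches of 150 bases taken along the 8 genes, 0 occurred at a second place in the reference genome.

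Proteins imported into the matrix usually carry a leading stretch rich in lysine and arginine and poor in acidic residues. The first 90 coding bases of the 8 genes are shown for this reason, from RefSeq R64, 5′ to 3′ on the coding strand, with lysine and arginine codons in capitals. The sequences are those of the laboratory strain S288C, and those of AWRI R2 may differ.
MSE1, chrXV:263475-263564, plus strand: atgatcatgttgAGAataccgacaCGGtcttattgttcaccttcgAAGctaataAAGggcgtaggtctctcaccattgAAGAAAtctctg
MSW1, chrIV:1004004-1004093, plus strand: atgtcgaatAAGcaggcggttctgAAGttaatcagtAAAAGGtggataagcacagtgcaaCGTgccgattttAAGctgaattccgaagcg
MSM1, chrVII:842462-842551, minus strand: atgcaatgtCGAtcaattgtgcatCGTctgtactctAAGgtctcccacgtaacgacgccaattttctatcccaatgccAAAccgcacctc
MSF1, chrXVI:657529-657618, plus strand: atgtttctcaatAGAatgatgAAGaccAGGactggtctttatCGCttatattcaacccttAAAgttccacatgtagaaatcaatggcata
MSD1, chrXVI:355700-355789, plus strand: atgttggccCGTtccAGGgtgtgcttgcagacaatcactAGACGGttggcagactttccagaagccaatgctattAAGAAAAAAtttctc
AIM10, chrV:330576-330665, plus strand: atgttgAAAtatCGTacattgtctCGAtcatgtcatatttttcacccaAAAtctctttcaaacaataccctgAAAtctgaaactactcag
DIA4, chrVIII:127780-127869, plus strand: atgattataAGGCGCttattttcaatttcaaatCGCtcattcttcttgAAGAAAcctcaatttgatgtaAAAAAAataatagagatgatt
HER2, chrXIII:856704-856793, minus strand: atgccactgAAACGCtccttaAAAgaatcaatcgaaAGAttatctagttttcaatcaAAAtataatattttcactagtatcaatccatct

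MSD1 and DIA4 had 7 lysine and arginine codons each among these 30 codons, the most of the set, and MSM1 had 4, the fewest. MSE1 and MSM1 had 0 codons for aspartate or glutamate, and no gene of the set had more than 2. The surplus of basic over acidic codons ran from 3 in HER2 to 6 in MSE1, with a median of 4. Over 5988 nuclear coding genes of R64 the median surplus was 0. Of these genes, 23.0% had a surplus of at least 3 together with at most 2 acidic codons, as all 8 members did. Both limits are the extremes of the members themselves, so all 8 meet them by construction and nothing is read from the share.

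Synthetases fall into 2 classes with unrelated catalytic folds. By background knowledge, MSE1, MSW1 and MSM1 belong to class I, whose signatures are named HIGH and KMSKS after their amino acids, and MSF1, MSD1, AIM10 and DIA4 to class II, which lacks both. Both signatures vary in their second residue, so H-any-GH and K-any-SK were searched in the translated reading frames. The coding bases of every match in the 3 class I genes are shown, with the 4 codons of the signature in capitals and 9 bases on each side.
MSE1, KLSK, residues 291 to 294: ggtgataagAAATTGAGTAAAagaaaaggt
MSW1, KMSK, residues 244 to 247: cctgaaaagAAAATGTCCAAGagtgatccg
MSM1, HLGH, residues 29 to 32: gccaaaccgCACCTCGGCCATctttactcc
MSM1, KMSK, residues 341 to 344: aatggaatgAAAATGTCCAAAagtttgggt

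The spelling K-any-SK is loose: it was found in 20.01% of 6002 nuclear proteins of R64, and also in the class II genes MSD1 (KFSK, residues 289 to 292) and AIM10 (KDSK, residues 103 to 106, and KYSK, residues 390 to 393). H-any-GH was found in 1.75% of the proteins and, of the 8 genes, in MSM1. A match is a run of letters and not a proven active site. Other spellings of the signatures were not searched, so the missing match does not show that MSE1 and MSW1 lack HIGH. HER2 is no synthetase and belongs to neither class. The rise from A to C had a median of 3.27-fold over the 3 class I genes and 2.85-fold over the 4 class II genes. With MSE1 at 3.64-fold and MSW1 at 2.63-fold in class I, and MSF1 at 3.09-fold and MSD1 at 2.58-fold in class II, the classes overlapped.

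In the deposited means, the pair of groups with the 2 tannin doses was the highest for each of the 8 genes, and the pair without the high dose was the lowest. For MSE1 the mean normalized count was 601 over groups A and B, 993 over A and C and 1176 over B and C. For MSM1 it was 512, 799 and 945 in the same order, and for DIA4 it was 196, 345 and 371. In MSE1 and MSM1 all 3 means stood apart, whereas in DIA4 both means that include group C lay close together. For HER2 the means were likewise 423, 652 and 673, and for MSW1 524, 889 and 931. MSD1 differed from the others, as its mean over A and B, 929, was close to that over A and C, 1024, and both were well below that over B and C, 1397.

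**Figure D1:**
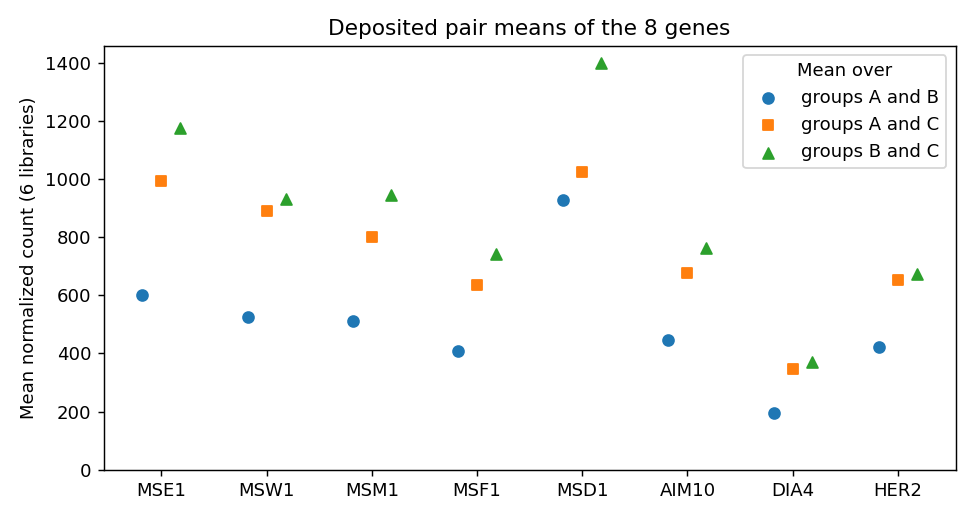
The deposited mean normalized count of each gene (vertical axis) over the 6 libraries of groups A and B (circles), A and C (squares) and B and C (triangles). Circles are the lowest and triangles the highest for all 8 genes, and for MSD1 the circle (929) and the square (1024) lie close together.

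The solved levels stood in the order A, B, C for 8 of the 8 genes, an order that MSW1, DIA4 and HER2 lost when the tables were scaled to equal sums, an alternative that put B below A in them. This order was found for 25.9% of the 5664 genes with a mean of at least 10 in all 3 tables, and, since the members were chosen for being higher in C than in A, also for 74.5% of the 1037 genes that were at least 2-fold higher in C than in A. Summed over the 8 genes, the level was 3092 normalized counts in group A, 5106 in group B and 8820 in group C. The sum was 1.65-fold higher at 0.1 g/L PAs and 2.85-fold higher at 1.0 g/L PAs than in the control.

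MSE1 charges the glutamate tRNA. Its level was 424 normalized counts in group A, 797 in group B and 1543 in group C. It had the highest ratio of C to A of the set, 3.64-fold, and both dose steps were of nearly equal size as ratios, 1.88-fold from A to B and 1.94-fold from B to C. MSM1, the methionyl-tRNA synthetase, went from 371 in group A to 668 in group B and 1213 in group C. Its steps were likewise near equal, 1.80-fold and 1.82-fold, and its ratio of C to A was 3.27-fold. When the tables were scaled to equal sums, the steps were 1.37-fold and 2.36-fold for MSE1 and 1.34-fold and 2.20-fold for MSM1.

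MSF1 charges the phenylalanine tRNA as a single chain, unlike its cytoplasmic counterpart, which has 2 kinds of subunit. Its level was 307 in group A, 524 in group B and 949 in group C, with ratios of 1.71-fold from A to B and 3.09-fold from A to C. On the log2 scale, MSF1 and MSM1 were the closest pair of the set in their ratios of B to A and of C to A, 0.11 apart. AIM10, the putative prolyl-tRNA synthetase, was at 361, 542 and 978 normalized counts in groups A, B and C, which is 1.503-fold from A to B and 2.71-fold from A to C.

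MSD1, the aspartyl-tRNA synthetase, was the gene whose level changed the most at the low dose. It was at 566 normalized counts in group A, 1319 in group B and 1462 in group C. The ratio was 2.33-fold from A to B, 2.58-fold from A to C and only 1.11-fold from B to C. Its ratio of B to A was the highest of the set and its ratio of C to B the lowest.

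MSW1, DIA4 and HER2 had the opposite shape, with most of the step between the doses. MSW1, which charges the tryptophan tRNA, was at 486 normalized counts in group A, 577 in group B and 1275 in group C. Its ratio of B to A was 1.19-fold, but 0.869-fold with equal sums, and its ratio of C to B was 2.21-fold. DIA4, the probable seryl-tRNA synthetase, was at 172, 225 and 513 in groups A, B and C. Its ratio of B to A was 1.31-fold, but 0.947-fold with equal sums, and its ratio of C to B, 2.27-fold, was the highest of the set. HER2, which acts on the glutamine tRNA after it has been given glutamate, was at 406, 453 and 886. Its ratio of B to A was 1.12-fold, but 0.840-fold with equal sums, and both this ratio and that of C to A, 2.18-fold, were the lowest of the set. Under equal sums the median of all genes in B to A stood at -0.24 on the log2 scale.

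**Figure D2:**
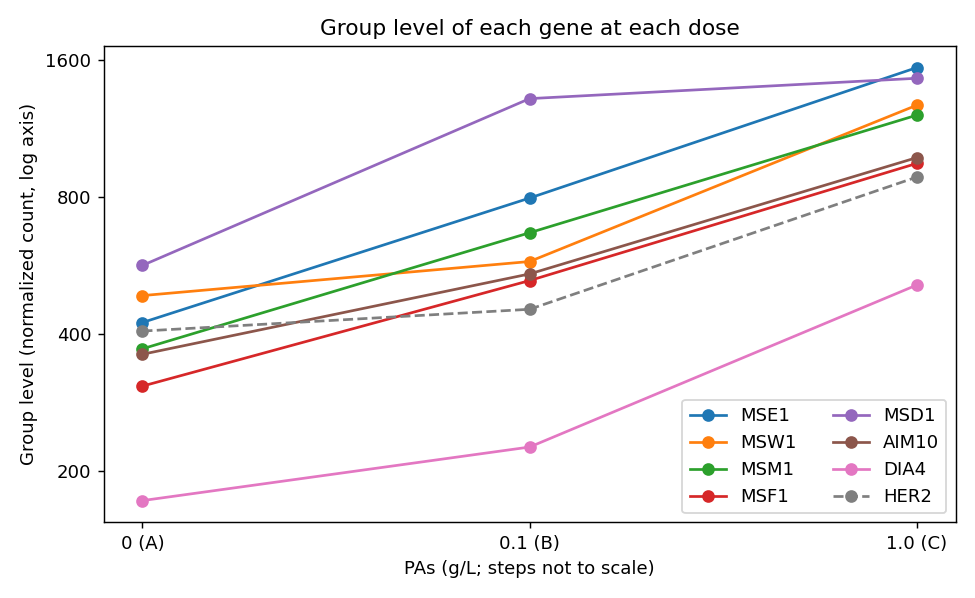
Solved level of each gene in normalized counts (vertical log axis) in groups A, B and C (horizontal axis, dose of PAs in g/L, steps not to scale), 1 line per gene, with HER2 dashed. The lines of MSE1, MSM1, MSF1 and AIM10 are near straight under the reported scaling shown here, but their 2 steps were unequal with equal sums. MSD1 climbs from 566 to 1319 at the low dose and then flattens. MSW1, DIA4 and HER2 climb mainly between the doses, their step from 0 to 0.1 g/L being reversed with equal sums.

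The share of the log2 rise from A to C that was already present at 0.1 g/L PAs puts these shapes on 1 scale. It was 89.1% for MSD1, 49.7% for MSM1, 48.8% for MSE1, 47.4% for MSF1, 40.9% for AIM10, 24.8% for DIA4, 17.9% for MSW1 and 14.2% for HER2. The median of the 8 genes was 44.1%. Over the 1037 genes that were at least 2-fold higher in C than in A, the median share was 18.8%, and the interquartile range ran from 2.28% to 35.9%. MSD1, MSM1, MSE1, MSF1 and AIM10 lay above that range, whereas DIA4, MSW1 and HER2 lay within it. The share depends on the scaling of the tables: with equal sums, it was 70.7% for MSD1, 26.9% for MSM1, 26.8% for MSE1, 23.5% for MSF1 and 13.6% for AIM10, and below 0 for DIA4, MSW1 and HER2. The range over the 1037 genes was taken under the reported scaling only, so the shares with equal sums cannot be set against it. The place of MSD1 at the top held under the 5 other scalings. The near equal steps of MSE1, MSM1 and MSF1 did not hold with equal sums. In normalized counts rather than ratios, the gain from B to C was larger than that from A to B in 7 of the 8 genes, the exception being MSD1, with a gain of 753 and then of 143.

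Against the control, 8 of the 8 genes were at least 2-fold higher at 1.0 g/L PAs, from 2.18-fold for HER2 to 3.64-fold for MSE1 (median 2.85-fold). Of all genes, 18.3% were at least 2-fold higher in this comparison, and the median over all genes was 0.983-fold. This is the contrast by which the genes were chosen, so nothing is read from the count. HER2 lay nearest to the 2-fold mark, and the genes just below it cannot be named.

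At 0.1 g/L PAs against the control, 1 of the 8 genes, MSD1, was at least 2-fold higher, and 3.23% of all genes were. Of the 1037 genes that were at least 2-fold higher in C than in A, 11.4% were also at least 2-fold higher in B than in A, which is near 1 of 8. With equal sums the count was 0, as MSD1 then stood at 1.87-fold, and 1.64% of all genes passed. The median ratio of the 8 genes was 1.61-fold, beside 1.04-fold over all genes. The ratio of MSD1 was higher than that of 97.9% of the 5664 genes, that of MSE1 than that of 96.0%, that of MSM1 than that of 95.3% and that of MSF1 than that of 94.3%. AIM10 stood above 90.3% of genes, DIA4 above 81.3%, MSW1 above 69.7% and HER2 above 60.6%, these last 3 being the genes whose ratio fell below 1 with equal sums. This comparison was not used to choose the genes, but it shares the control libraries with the one that was, and genes that were at least 2-fold higher in C than in A had a median ratio of B to A of 1.22-fold.

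Between the doses, 2 of the 8 genes, MSW1 and DIA4, were at least 2-fold higher in group C than in group B, as were 16.8% of all genes. The median ratio of C to B was 1.88-fold for the 8 genes and 0.983-fold over all genes. Since this comparison shares the libraries of group C with the one by which the genes were chosen, nothing is read from this difference. HER2 (1.95-fold) and MSE1 (1.94-fold) lay just under the mark, and with equal sums 7 of the 8 genes passed it, all but MSD1, as did 25.9% of all genes. MSD1, at 1.11-fold, stood above 56.9% of all genes, the lowest place of the set, and DIA4 stood above 87.5%, the highest.

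**Figure D3:**
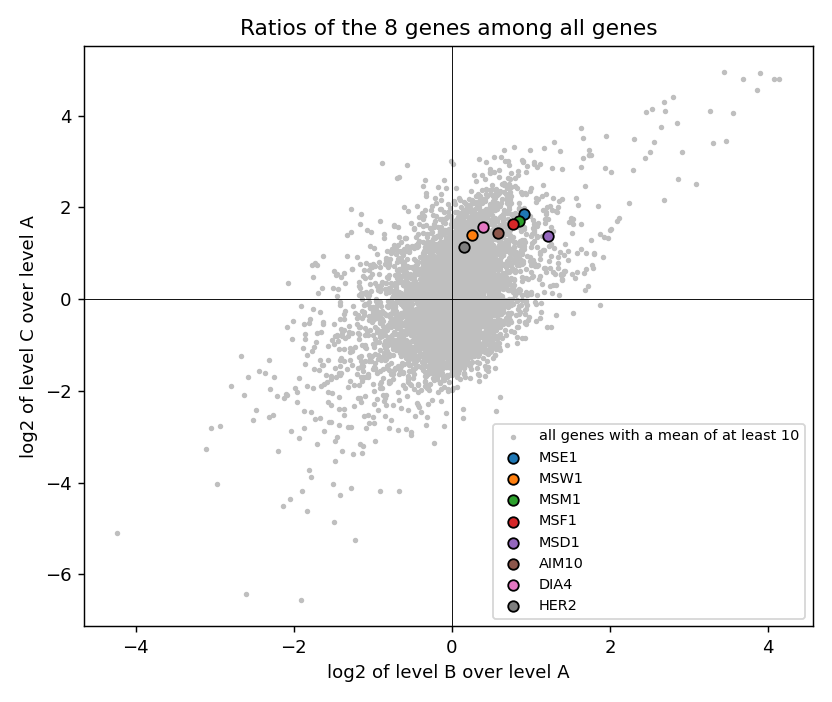
Log2 ratio of level B to level A (horizontal axis) and of level C to level A (vertical axis) for all 5664 genes with a mean of at least 10 (grey) and for the 8 genes (coloured points, named in the key). Both axes share group A. The 8 genes lie above both lines at 0, which MSW1, DIA4 and HER2 do not for B to A with equal sums, with MSD1 farthest to the right (1.22) and MSE1 highest (1.86).

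Levels of different genes can be compared only per length. Per kilobase of coding sequence, MSW1 had the highest level of the set in group A, 426 normalized counts, followed by HER2 with 291 and MSD1 with 286. DIA4 had the lowest, 128. In group B, MSD1 had the highest level per kilobase, 667, and MSW1 was at 507. In group C, MSW1 was again the highest, with 1119, followed by MSE1 with 958 and MSD1 with 740, and DIA4 was still the lowest, with 382. Without a spread between libraries, it cannot be said which neighbours in these orders differ.

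The rows beside the members in the order of the running numbers, which follows the chromosomes for the members, were read for local context. The rows with the next lower and next higher running number gave 16 neighbours, of which 4 were at least 2-fold higher in C than in A. Their median was 1.36-fold and their range ran from 0.380-fold to 2.64-fold. Of all genes, 18.3% were at least 2-fold higher in this comparison, and the median was 0.983-fold. With so few neighbours and no test, nothing is read from this count. The 4 neighbours were both rows beside HER2, at 2.64-fold and 2.09-fold, the next higher row beside AIM10, at 2.54-fold, and the next higher row beside DIA4, at 2.58-fold. Only the row below HER2 exceeded its member. Beside MSF1 and MSD1, which rose 3.09-fold and 2.58-fold, the next higher row and the next lower row were at 0.380-fold and 0.463-fold. The counting is not stated to use strand, so reads that run over from a neighbour on the other strand cannot be told apart from those of the gene. HER2 has the closest neighbour of the set, at 105 bases.

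Promoters were searched from 250 bases before to 50 bases after the start codon, on both strands, for 4 short words that yeast factors are known to bind. CCAAT, the word of the Hap complex that serves respiratory genes, was found in 4 of the 8 promoters (MSM1, MSF1, AIM10 and HER2) and in 43.3% of 6001 promoters of R64. AGGGG, the stress word of Msn2 and Msn4, was found in AIM10, DIA4 and HER2 and in 21.6% of all promoters. GATGAG, a word of genes for ribosome synthesis, was found in MSE1 and in 20.4% of all promoters. TGACTC, the word of Gcn4, the activator of amino acid synthesis genes, was found in 0 of the 8 and in 7.98% of all promoters. No match overlapped a match of another word. The promoters of MSW1 and MSD1 held none of the 4 words. The CCAAT match nearest to the start codon is shown for each of the 4 genes with 9 bases on each side and the word in capitals, 5′ to 3′ on the coding strand, where it reads ATTGG if it lies on the other strand.
MSM1, chrVII:842654-842676, 116 bases before the start codon: aaacgtagtCCAATggtggtttc
MSF1, chrXVI:657502-657524, 18 bases before the start codon: aaatatctgCCAATggaggtaac
AIM10, chrV:330326-330348, 241 bases before the start codon: acctataaaCCAATtcaatacaa
HER2, chrXIII:856809-856831, 29 bases before the start codon: ggcccctcaATTGGagtcctaac

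CCAAT was held by MSM1 and MSF1, the closest pair in their ratios, and by AIM10. It was also held by HER2, with the lowest ratio of C to A of the set, and not by MSE1, with the highest. The 4 of 8 genes are near the share of all promoters, 43.3%, and a link of the word to the ratios was not tested.

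The ratio of C to A kept its direction and stayed at or above 2-fold for all 8 genes under the 5 other scalings and with a pseudocount of 10. It ran from 2.07-fold to 2.24-fold for HER2 and from 3.23-fold to 3.75-fold for MSE1. The ratio of B to A ran from 1.87-fold to 2.35-fold for MSD1, and from 0.840-fold to 1.12-fold for HER2, so that no direction can be given to HER2 at the low dose, nor to MSW1 (0.869-fold to 1.19-fold) and DIA4 (0.947-fold to 1.32-fold).

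**Figure D4:**
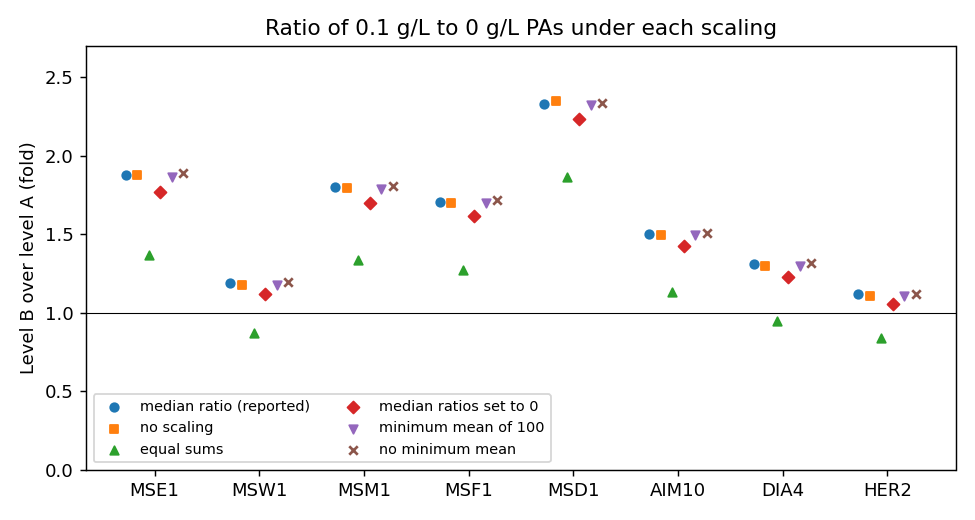
Ratio of level B to level A (vertical axis, fold, starting at 0) of each gene with the tables scaled by the median ratio, as reported, and under the 5 other scalings (symbols in the key). Equal sums (triangles pointing up) give the lowest value for every gene and put MSW1 (0.869), DIA4 (0.947) and HER2 (0.840) under the line at 1.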

How the data were processed

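RNA of 9 yeast libraries was sequenced, 3 for each dose of PAs. Per the submitters' processing notes and the study's methods, the authors trimmed reads with Trimmomatic 0.30, aligned them with HISAT2 2.0.1 to the S288C genome (build not given in the sources used here), counted them with HTSeq 0.6.1 and compared groups with the DESeq package. The deposited signal used here is the column named baseMean, in that package the mean over the compared libraries, here 6, of counts divided by size factors. Each of the 3 tables also holds the authors' own log2 fold change, its standard error, a test statistic and p-values, which were not used.

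The tables were put on 1 scale by the median ratio of their means over genes with a mean of at least 10 in all 3 tables, and the group levels were solved from the means. Of 5664 such genes, 0 had a level at or below 0. The steps were tried on simulated libraries in which a small part of the genes was changed, with equal numbers raised and lowered. How the scaling acts where changes are not balanced, or where as many genes change as in these data, was not simulated. Groups were taken from the labels. As no value per library was used, no test was run, and neither depth nor precision per library was assessed. A fold of 2 was used for counts. The genes named are the 8 members, and members and lists were chosen with earlier results of these data known. Alternatives were other scalings, minimum means, folds and a pseudocount. Sequences are from RefSeq R64. Proteins are not printed. The software was Biopython 1.88, matplotlib 3.10.9, pandas 2.3.3, scipy 1.17.1 and numpy 2.4.6 under Python 3.11.15.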

Additional observations from a re-analysis of the deposited data

How the results depend on the processing

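With no spread between libraries, a level, ratio or count of members was taken as unmoved within 1.5 times its reported value. A ratio also had to stay on the same side of 1. By these limits 307 of 318 values under the alternatives were unmoved. The limit is wide beside the ratios of B to A. With equal sums, MSE1 went from 1.88-fold to 1.37-fold and AIM10 from 1.503-fold to 1.13-fold, and both were counted as unmoved. The 318 values include the group levels and leave out the share of the log2 rise. The count therefore does not show that the ratios at the low dose are stable. With equal sums in the 3 tables, the ratio of B to A reversed for MSW1 (0.869-fold), DIA4 (0.947-fold) and HER2 (0.840-fold). That scaling put the median of all genes at -0.24 in B to A and at 0.30 in C to B on the log2 scale. Relative to this median, the 3 genes stood at 0.041, 0.17 and -0.0077. It left 0 members at least 2-fold higher in B than in A (1.64% of all genes) and 7 members at least 2-fold higher in C than in B (25.9% of all genes). With the median ratios set to 0, 4 members were at least 2-fold higher in C than in B (18.9% of all genes). At a fold of 1.5, 5 members were counted from A to B (9.85% of all genes) and 7 from B to C (27.9%). At a fold of 3, 3 members were counted from A to C (7.70% of all genes), 0 from A to B (1.11%) and 0 from B to C (5.38%). No paired analysis was possible because the columns carry no replicate, and for the same reason no replicate was left out in turn.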
